A study of Mus musculus with 27 samples.

Results

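Meis2 was described here as a capture Hi-C viewpoint in mouse testis, that is, by where the chromatin of the gene made contact. Its members were the pairs of 10 kb bins with one end in chr2:115860001-116080000, which holds Meis2, and the other end anywhere in chr2:115200001-117080000, the well covered core of the captured part of chromosome 2. Pairs of a bin with itself were left out. By this rule 3883 of the 17578 bin pairs of the core were members, of which 231 had both ends in the Meis2 interval, 2200 joined it to the side of the promoter (the 5′ side, at higher coordinates, since Meis2 lies on the minus strand) and 1452 joined it to the side of its last exon (the 3′ side).

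Meis2 encodes a homeodomain transcription factor of the TALE class, whose proteins bind DNA together with PBX and HOX partners and are known for their part in limb, heart, eye and neural crest development. In capture Hi-C, chromatin is cut and religated in the nucleus, so that fragments that lay close together are joined, and probes then enrich the joined fragments of chosen regions. The number of joined fragments falls steeply with distance along the chromosome, so a contact is read against the number usual at that distance. A whole testis is a mixture of somatic and germ cells, and a contact count is an average over them.

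The series deleted a boundary between topologically associating domains by CRISPR-Cas9, and 6 capture Hi-C libraries of testis were used here, 3 labelled WT (wild type) and 3 labelled B396.BOS_hom_KO (homozygous for the deletion). Strain, age and the cell types present are not given in the labels. All 6 genes of the authors' deposited table for the neighbourhood of the deletion lie on chromosome 4, so the Meis2 region on chromosome 2 lay outside it in both genotypes, and the 6 libraries served as 6 samples of 1 locus. The labels number the libraries within a genotype without naming animals, so the p-values measure the spread between these libraries. The tests over 6 libraries take each library as independent. Whether a replicate number shared by both genotypes stands for a pairing is not given.

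The annotated gene runs from 115861264 to 116067537 (mm10, RefSeq) and fills the interval of 220 kb. The start site used here, at 116064619, is the start listed in the promoter annotation. It lies inside the annotated span, whose 5′ end at 116067537 falls in the same 10 kb bin. A divergent long noncoding RNA gene, G630016G05Rik, starts at 116067225 in the same 10 kb bin. Another long noncoding RNA gene, 2810405F15Rik, starts at 116076096 in the next bin, so the promoter viewpoint covers the starts of all these genes. The bases just before the start sites of Meis2 and of Tmco5 are shown because the first lie in the promoter viewpoint and the second in the 10 kb bin next to its highest partner on the 5′ side, which holds most of Tmco5. They are given 5′ to 3′ on the strand of the gene, from RefSeq (GRCm38.p6), at chr2:116064620-116064869 (minus strand) and chr2:116878455-116878704 (plus strand), and capitals mark the letters of a TATA box, TATAAA, on either strand.
Meis2 promoter: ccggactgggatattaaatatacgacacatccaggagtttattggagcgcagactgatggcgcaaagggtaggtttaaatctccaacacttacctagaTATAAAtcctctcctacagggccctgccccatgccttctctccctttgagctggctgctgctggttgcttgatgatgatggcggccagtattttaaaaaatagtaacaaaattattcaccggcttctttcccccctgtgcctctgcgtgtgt
Tmco5 promoter: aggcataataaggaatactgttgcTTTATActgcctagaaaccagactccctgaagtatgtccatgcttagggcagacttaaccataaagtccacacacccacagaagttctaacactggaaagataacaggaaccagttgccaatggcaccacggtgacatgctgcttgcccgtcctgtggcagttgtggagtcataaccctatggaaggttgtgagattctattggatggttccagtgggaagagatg
The letters TATAAA were found once in each window, 152 bases before the start of Meis2 on the printed strand and 226 bases before that of Tmco5 on the opposite strand. They were in 12.4% of the 32817 promoter windows of the same 250 bases. Neither window held CCCTC, the core letters of the CTCF motif, which 60.5% of all windows held on either strand, nor TGACAG, the core letters bound by MEIS proteins, which 15.9% held. G and C made up 47.6% of the Meis2 window and 46.8% of the Tmco5 window, against a median of 52.4% over all windows. Bins of 10 kb are far wider than these windows, so the contacts do not tell which bases within a bin were in contact.

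The libraries held between 5669898 and 7794641 contacts each, of which 847445 to 1093571 lay in the core. Contacts of the Meis2 interval within the core numbered 192203, 222394 and 235282 for wild type (replicates 1 to 3) and 186285, 250725 and 233293 for the homozygous genotype. These were 22.1% ± 0.622 (SD, n = 6) of all core contacts. Of the contacts of the interval with other bins, 46.2% stayed in the core, 39.8% went elsewhere on chromosome 2 and 13.9% went to other chromosomes. Within the core, 36.1% joined bins of the interval to one another, 32.9% reached the 5′ side and 31.0% the 3′ side. The Meis2 bins were well covered, with a mean total of 26940 contacts a bin against 21498 over the core, 23119 on the 3′ side and 19230 on the 5′ side. Since the deposited counts carry no correction for how well a bin is captured, the main results are also given after iterative balancing. It sets the totals of all bins within the core equal. Contacts beyond the core were not used, so bins at its edge lack near partners on their outer side. The shares of balancing's change due to capture, to a bin's place in the core and to true differences in contact cannot be told apart.

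The Meis2 interval made more contact with its 3′ side than with its 5′ side. The log2 ratio of observed to expected contacts, where the expected number is the mean at that distance over core bin pairs without an end in Meis2, was taken over bins 30 to 600 kb apart. Towards the 3′ side replicates 1 to 3 gave 0.26, 0.35 and 0.25 for wild type and 0.28, 0.37 and 0.28 for the homozygous genotype, a mean of 0.30 ± 0.05 (SD, n = 6), or 1.23-fold the expected number. Towards the 5′ side they gave -0.04, 0.04 and -0.01 for wild type and -0.01, 0.03 and 0.01 for the homozygous genotype, a mean of 0.00 ± 0.03. The ranges of the sides did not overlap, and every library gave a lower value on the 5′ side. The difference, 5′ minus 3′, was -0.29 ± 0.03 (SD, n = 6; exact two-sided sign-flip permutation test over the libraries, p = 0.03125, the smallest that 6 libraries allow, and 0.03125 after Benjamini-Hochberg adjustment over the 5 contrasts tested within libraries). After balancing the difference kept its sign in 6 of 6 libraries but shrank to -0.06 ± 0.02 (adjusted exact p = 0.03125). The level itself changed sign: the balanced value was -0.13 ± 0.01 on the 3′ side and -0.19 ± 0.01 on the 5′ side. With partners taken only up to 400 kb away, a limit chosen after seeing the data, the difference on the deposited counts was -0.18.

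**Figure D1:**
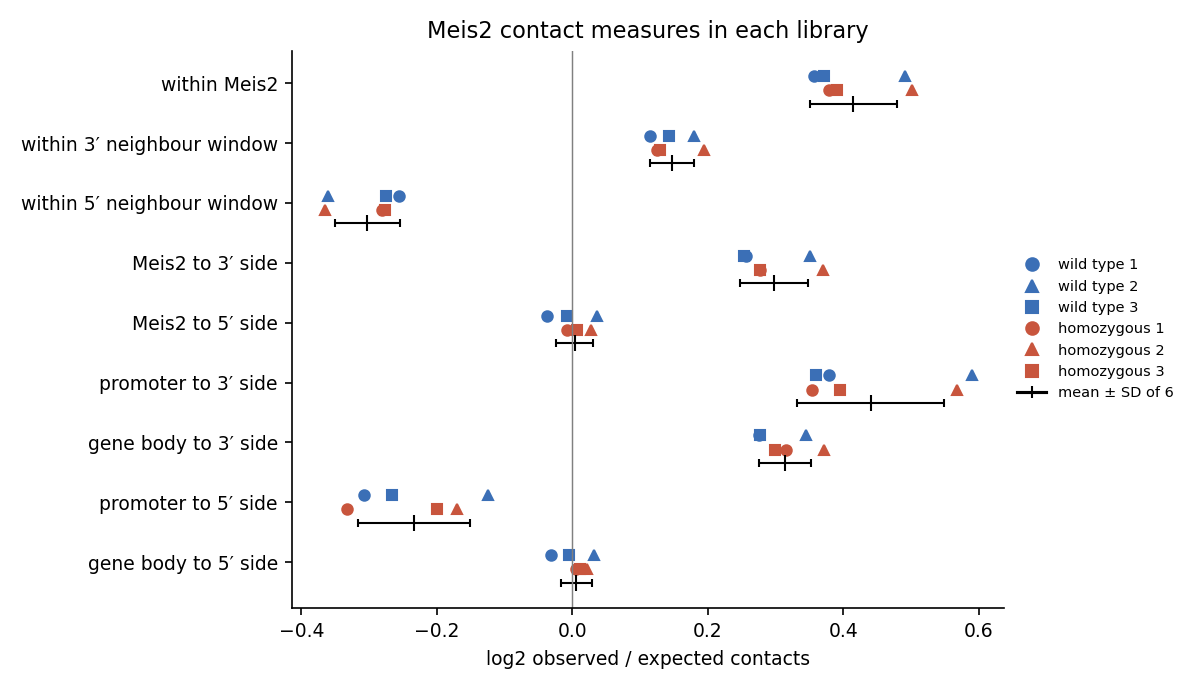
Contact measures of Meis2 in each of the 6 libraries. The horizontal axis is the log2 ratio of observed to expected contacts, coloured symbols are libraries (circle, triangle and square for replicates 1, 2 and 3), and the black bar under each row is the mean ± SD of 6. Both genotypes lie together in every row, the within-gene values (0.36 to 0.50) lie above those of both neighbour windows, and both triangles lie at one end of every row.

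The sides differed in how the reach changed with distance. On the 3′ side the values of all Meis2 bins went from 0.20 ± 0.06 (SD, n = 6) at 30 to 100 kb to 0.28 ± 0.06 at 210 to 400 kb and 0.42 ± 0.08 at 810 to 1000 kb. On the 5′ side they were -0.04 ± 0.04 at 30 to 100 kb, 0.13 ± 0.02 at 110 to 200 kb and 0.10 ± 0.02 at 210 to 400 kb. At 410 to 600 kb they lay below expectation, at -0.25 ± 0.04. Beyond that gap the 5′ side lay above expectation again, with 0.27 ± 0.04 at 610 to 800 kb and 0.63 ± 0.08, or 1.55-fold, at 810 to 1000 kb. The most distant band was thus higher on the 5′ side than on the 3′ side, with ranges over the libraries of 0.55 to 0.78 and 0.30 to 0.54 that did not overlap. Balancing changed this picture near the gene. On the 3′ side the balanced values were -0.25 ± 0.01 at 30 to 100 kb, -0.19 ± 0.01 at 110 to 200 kb and -0.17 ± 0.01 at 210 to 400 kb, and they lay above 0 beyond that, up to 0.34 ± 0.09 at 810 to 1000 kb. On the 5′ side they were -0.21 ± 0.02, -0.12 ± 0.02 and -0.18 ± 0.02 in the same bands, -0.25 ± 0.02 at 410 to 600 kb and 0.26 ± 0.03 at 810 to 1000 kb. The excess over expectation, at 30 to 400 kb on the 3′ side and at 110 to 400 kb on the 5′ side, thus turned into a deficit. The balanced 5′ side was the higher at 30 to 200 kb, and at 810 to 1000 kb the 3′ side had the higher mean, with overlapping ranges. The excess at the greatest distance and the value below expectation at 410 to 600 kb on the 5′ side were seen on both kinds of count. The greatest distances reach the edges of the core, where a bin's place also bears on the balanced value. In the promoter's profile the last 20 kb bin, at 117060001, went from -0.55 to 0.31 on balancing. These bands were described and not tested. The dip of the deposited counts at 410 to 600 kb coincided with a thinly covered stretch: the 10 bins that begin about 400 kb upstream of the start site had a mean total of 8074 contacts, and of the 4 core bins left out for low coverage 3 lay there.

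**Figure D2:**
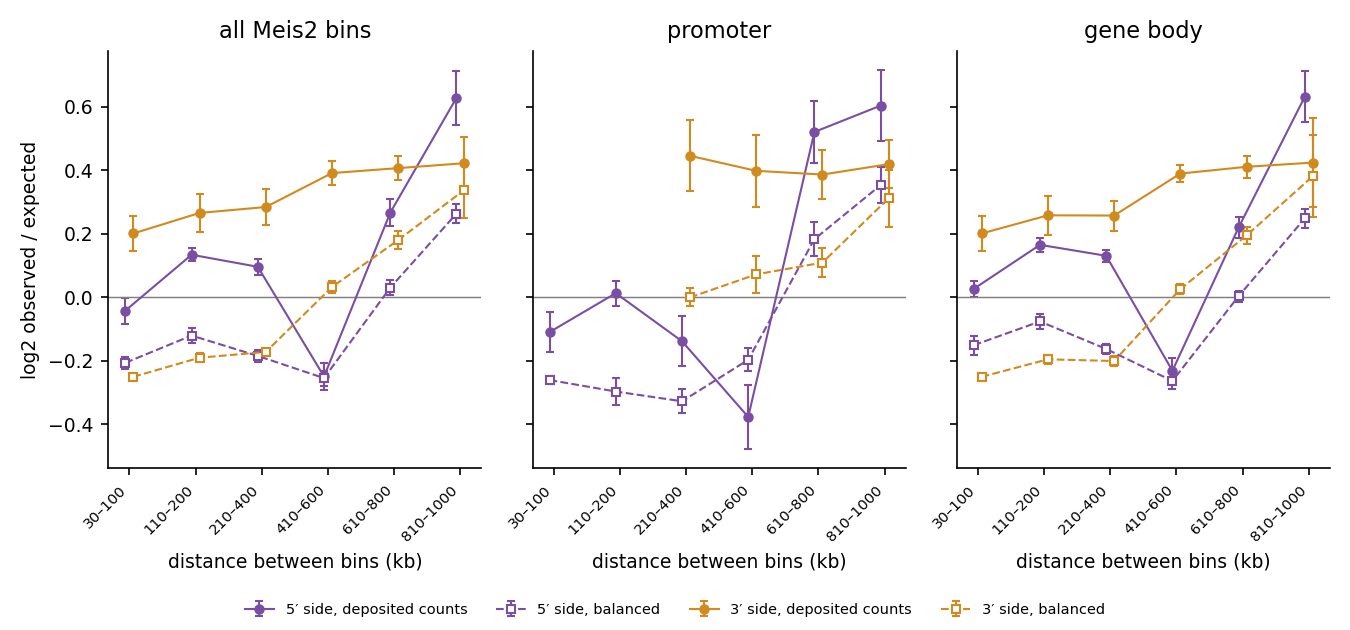
Reach of Meis2 by distance, for all Meis2 bins (left), the 3 promoter bins (middle) and the other 19 bins (right). Points are the mean log2 ratio of observed to expected contacts in a distance band (kb) and bars the SD of 6 libraries, purple for the 5′ side and orange for the 3′ side, with filled circles for deposited and open squares for balanced counts. On deposited counts the 3′ side stays between 0.20 and 0.45 in every panel, while over all Meis2 bins the balanced values of both sides are below 0 up to 400 kb and highest at 810 to 1000 kb.

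At 200 to 600 kb the promoter made more contact than the gene body on the 3′ side and less on the 5′ side. The promoter lies at the 5′ end of the interval, so at equal distance the viewpoints met different partner bins. The promoter viewpoint was the bin of the start site with 1 bin on either side (chr2:116050001-116080000), the gene body the other 19 bins of the interval. Towards the 3′ side the promoter's values by replicate were 0.38, 0.59 and 0.36 for wild type and 0.35, 0.57 and 0.39 for the homozygous genotype, a mean of 0.44 ± 0.11 (SD, n = 6). The gene body gave 0.31 ± 0.04, so the promoter was higher, by 0.13 ± 0.08 in the mean and in 6 of 6 libraries (exact sign-flip permutation test over 6 libraries, adjusted p = 0.03125). Balancing left this difference at 0.14 ± 0.03 (adjusted exact p = 0.03125). It ended as a call when pairs had to be at least 220 kb apart (0.08, adjusted exact p = 0.0625 over 6 libraries), which leaves out the pair of the start-site bin and the bin just past the 3′ end of the gene, 210 kb away. The replicate 2 libraries of both genotypes gave the larger differences, 0.24 and 0.20, and the other 4 libraries 0.04 to 0.10, with a mean of 0.08 without replicate 2.

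Towards the 5′ side the order was the reverse. The promoter's values by replicate were -0.31, -0.12 and -0.27 for wild type and -0.33, -0.17 and -0.20 for the homozygous genotype, a mean of -0.23 ± 0.08 (SD, n = 6), or 0.850-fold the expected number. All 6 lay below 0, whereas the gene body gave 0.01 ± 0.02. The promoter was lower by a mean difference of -0.24 ± 0.07, in 6 of 6 libraries (exact sign-flip permutation test over 6 libraries, adjusted p = 0.03125). After balancing the difference was -0.09 ± 0.02, again in 6 of 6 libraries (adjusted exact p = 0.03125). Both viewpoints were also read against the same 100 kb windows, without a test. In the windows from 116300001 to 116600001 the promoter gave -0.05, -0.18, -0.69 and 0.07, and the gene body 0.07, -0.10, -0.65 and 0.21. In those from 115500001 to 115700001 the promoter gave 0.50, 0.24 and 0.24, and the gene body 0.41, 0.21 and 0.15. Other distance bands, which were not tested, did not keep the order of the tested range. At 610 to 800 kb on the 5′ side the promoter gave 0.52 ± 0.10 and the gene body 0.22 ± 0.03 (balanced 0.18 ± 0.05 and 0.00 ± 0.02). On the 3′ side the viewpoints were close beyond 400 kb, with 0.40 ± 0.11 and 0.39 ± 0.03 at 410 to 600 kb and 0.39 ± 0.08 and 0.41 ± 0.03 at 610 to 800 kb, where the balanced promoter was the lower (0.11 ± 0.05 and 0.20 ± 0.03). The balanced order on the 5′ side also turned within the tested range, with -0.33 ± 0.04 for the promoter and -0.16 ± 0.02 for the gene body at 210 to 400 kb, and -0.20 ± 0.04 and -0.26 ± 0.02 at 410 to 600 kb.

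**Figure D3:**
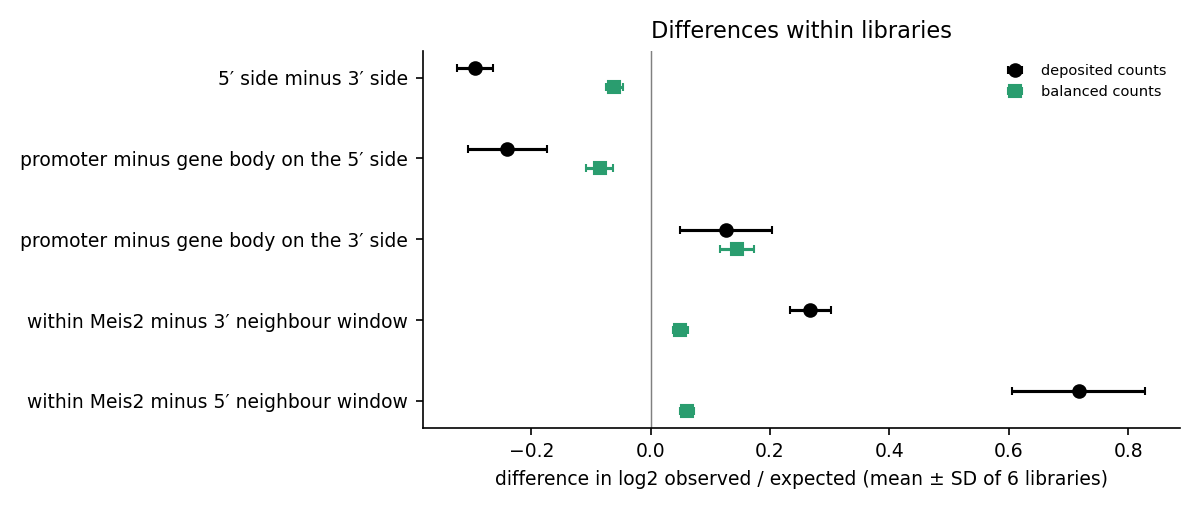
The 5 differences within libraries on the deposited counts (black circles) and after balancing (green squares). The horizontal axis is the difference in log2 observed over expected contacts, with the mean and SD of 6 libraries. Each difference keeps its sign, 4 of the 5 shrink after balancing, and the promoter's excess on the 3′ side is 0.13 before and 0.14 after.

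The interval was also dense inside. Bins of Meis2 30 to 200 kb apart, read here against the mean of all core pairs at that distance, gave 0.36, 0.49 and 0.37 for wild type and 0.38, 0.50 and 0.39 for the homozygous genotype, a mean of 0.41 ± 0.06 (SD, n = 6), or 1.33-fold. The adjoining window of 220 kb on the 3′ side gave 0.15 ± 0.03 and that on the 5′ side -0.30 ± 0.05. Meis2 thus exceeded its 3′ neighbour by 0.27 ± 0.03 and its 5′ neighbour by 0.72 ± 0.11, in 6 of 6 libraries each (exact sign-flip permutation test over 6 libraries, adjusted p = 0.03125 for both). After balancing the differences were 0.05 ± 0.01 and 0.06 ± 0.01, still in 6 of 6 libraries (adjusted exact p = 0.03125 for both), and the value inside Meis2 itself moved from above to below expectation, to -0.05 ± 0.01. Mean bin totals fell in the same order as the deposited-count values, with 26940 contacts in Meis2, 24735 in the 3′ window and 18644 in the 5′ window.

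For single pairs of 20 kb bins, at least 40 kb apart, a quasi-likelihood test in edgeR compared the count with the distance expectation of the whole core, with Benjamini-Hochberg adjustment over all 4097 core pairs and a threshold of 0.05. All pairs passed the filter on low counts. Of the 934 pairs with an end in Meis2, 609 (65.2%) were called above expectation and 154 (16.5%) below it. Over all core pairs 38.5% were called above and 37% below. The median log2 ratio was 0.24 over the Meis2 pairs and 0.02 over all core pairs. On the deposited counts all 45 pairs with both ends in Meis2 were called above, but with balancing weights 9 were above and 23 below. With the 3′ side 274 of 362 pairs were above and 12 below, against 82 and 125 with the weights. With the 5′ side 290 of 527 were above and 142 below, against 124 and 221 with the weights. With balancing weights in the model 215 Meis2 pairs (23.0%) were called above and 369 (39.5%) below. The shares over all core pairs were then 25.6% and 34.4%. Balancing sets all bin totals within the core equal. It thus largely removes an excess shared by most pairs of a bin, whether that came from capture or from contact. Of the 609 pairs called above, 188 (30.9%) were also above with the weights, against 626 of 1578 (39.7%) over all core pairs. Of the 154 called below, 115 (74.7%) were also below, against 760 of 1515 (50.2%) over all core pairs. These shares were not tested against each other.

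The 20 kb bin of the promoter (chr2:116060001-116080000) had 89 partner bins. On the deposited counts 60 (67.4%) were called above expectation and 17 (19.1%) below, against 38.5% and 37% over all core pairs. With balancing weights 29 (32.6%) were above and 30 (33.7%) below, against 25.6% and 34.4% over all core pairs. With both kinds of count 27 (30.3%) were above and 13 (14.6%) below. Over all core pairs 15.3% were above and 18.6% below with both kinds of count. Its profile was alike in the 6 libraries. Over the 89 partner bins the correlation between libraries was 0.879 to 0.931 (Pearson's r, across bins, which share neighbours, coverage and base composition), 0.882 to 0.931 within a genotype and 0.879 to 0.931 between genotypes. After balancing it was 0.733 to 0.829. Of the 89 bins, 49 lay above expectation in all 6 libraries, 14 below in all 6, and 26 on both sides of it. After balancing these were 21, 28 and 40. The same count was not made for other bins of the core. On the deposited counts, pairs with an end in Meis2 ran high as a whole, with a median of 0.24 against 0.02 over all core pairs. The median SD of a bin over the libraries was 0.16, against 0.13 that counting error alone would give and 0.45 for the spread of the mean profile over bins.

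The highest distant partner of the promoter was the far end of its own gene. The bin just past the last exon (chr2:115840001-115860000, 220 kb away) made 409, 555 and 470 contacts with the promoter bin for wild type and 370, 577 and 462 for the homozygous genotype, where distance alone would give 167 to 215. The log2 ratio was 1.30 (SE 0.04; edgeR, adjusted p = 6.36e-24), and 0.84 (SE 0.03) with balancing weights. The lowest of the 6 libraries stood at 1.15 and the highest at 1.58. The next bin, chr2:115860001-115880000, which holds the 3′ end of Meis2, was the second highest at 1.22 (SE 0.04; edgeR, adjusted p = 1.75e-23; balanced 0.64).

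At 10 kb the contact was sharper. The start-site bin met chr2:115850001-115860000 with a log2 ratio of 1.70 ± 0.27 (SD, n = 6), or 3.26-fold, and 1.13 ± 0.12 after balancing. The bin on its 3′ side gave 0.64 ± 0.21 and the bin towards the gene 1.34 ± 0.26, so the values fell off on both sides. The 9 bin pairs centred on this contact stood 0.70 ± 0.07 above the surrounding pairs 3 to 5 bins away, and 0.51 ± 0.04 above them after balancing. This location was picked for its height in the same libraries, so these values are descriptions. Seen from chr2:115850001-115860000, the 13 bins of Meis2 at least 100 kb away ranged from 0.45 to 1.72 with a median of 0.78. The top values belonged to the start-site bin (1.70, balanced 1.13) and the bin beside it (1.72, balanced 1.12), which holds the start of 2810405F15Rik. After balancing the median over the 13 bins was 0.16 and the maximum 1.13.

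**Figure D4:**
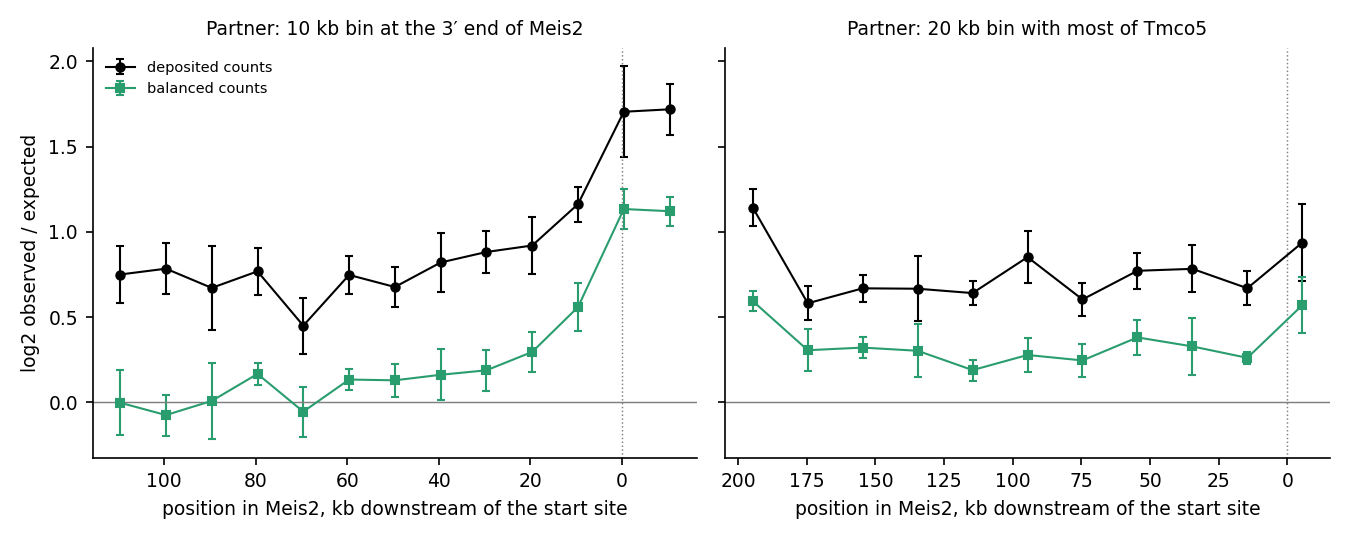
Contact of 2 partners with positions along Meis2. The horizontal axis is the position in the gene in kb downstream of the start site, the vertical axis the log2 ratio of observed to expected contacts, points are means and bars the SD of 6 libraries on deposited (black) and balanced (green) counts. The 10 kb bin at the 3′ end (left) climbs towards the start site, to 1.70 and 1.13, and the 20 kb bin with most of Tmco5 (right) is above 0 along the whole gene, with its highest values at both ends.

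The second group of partners lay about 800 kb upstream, around Tmco5, a gene named for its transmembrane and coiled-coil domains. The bin chr2:116880001-116900000, which holds most of Tmco5 but not its start site, made 148 to 214 contacts with the promoter bin in the 6 libraries, where 75.3 to 95.1 were expected. Its log2 ratio was 0.94 (SE 0.06; edgeR, adjusted p = 8.04e-16) and 0.57 (SE 0.05) with balancing weights. The bin chr2:116840001-116860000 followed at 0.70 (SE 0.06; balanced 0.35), and the bin between them, chr2:116860001-116880000, with the start site of Tmco5, had a mean of 0.48 over the 6 libraries. The contact extended along the gene: from the same Tmco5 bin, all 11 bins of 20 kb in Meis2 lay above expectation, between 0.58 and 1.14 on the deposited counts and between 0.19 and 0.59 after balancing, with the highest value at the 3′ end of the gene. The fifth named partner, chr2:115500001-115520000 on the 3′ side, holds the start of the long noncoding RNA gene 3110099E03Rik and gave 0.79 (SE 0.06; edgeR, adjusted p = 6.08e-15; balanced 0.26).

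The 5 lowest partners all lay on the 5′ side, in bins whose totals were 34.7% to 63.1% of the core's median 20 kb bin. The 5 highest partners lay in well covered bins, with totals of 111.7% to 132.8% of that median. The bin chr2:116260001-116280000, 200 kb upstream, gave a log2 ratio of -1.38 (SE 0.06; edgeR, adjusted p = 4.01e-20) and -0.47 (SE 0.07) with balancing weights. It made 65 to 84 contacts with the promoter in the 6 libraries against 180 to 224 expected. Its total was 38.0% of that median. The bins at 116500001 and 116540001 gave -1.25 (SE 0.08) and -0.67 (SE 0.09), and neither call held with balancing weights, where they were -0.08 (edgeR, adjusted p = 0.416) and -0.09 (edgeR, adjusted p = 0.288). Their totals were 34.7% and 60.2% of the median. The bins at 116580001 and 116460001 gave -0.61 and -0.57 on the deposited counts and -0.30 and -0.21 with the weights, where both calls held.

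Among the 23 annotated genes of the core only BC052040, Meis2 and Tmco5 are coding, with 14 genes of long noncoding RNAs, 4 pseudogenes and 2 small RNA genes, Mir1951 and LOC115489615. For 14 genes with an annotated start at least 100 kb from that of Meis2, the 3 promoter bins were read against the start-site bin of the gene and its neighbours, 9 bin pairs each. On the deposited counts 13 of the 14 means lay above expectation and 12 did so in all 6 libraries. After balancing, 7 did so in all 6 libraries: the 5 genes of the 5′ side and 2 of the 9 genes of the 3′ side. Of all 89 partner bins of the promoter's 20 kb bin, 49 were above in all 6 libraries, and 21 after balancing. These are unlike measures, so the counts cannot be set side by side. The genes were read against core pairs without an end in Meis2, over 9 pairs of 10 kb bins. The 89 partner bins were single 20 kb pairs read against all core pairs. The 5 genes of the 5′ side start 810 to 1000 kb away, where the promoter's whole band stood at 0.60 (balanced 0.35). The means of the genes were not tested against those of other bins. The highest was D330050G23Rik, a long noncoding RNA gene beside Tmco5, at 0.81 ± 0.19 (SD, n = 6; balanced 0.58 ± 0.13), and Tmco5 followed at 0.80 ± 0.10 (balanced 0.39 ± 0.09). The start of Gm13990 falls in the same bin as that of Tmco5, so the values of these genes cannot be told apart. BC052040, the coding neighbour on the 3′ side, gave 0.48 ± 0.15 (balanced 0.15 ± 0.08), with 260 to 410 contacts a library. Gm39912, at the far edge of the core, was the gene below expectation on the deposited counts, at -0.11 ± 0.20, and it stood at 0.31 ± 0.11 after balancing.

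The contacts of Meis2 averaged within the gene and on either side differed between genotypes by less than the spread between unpaired libraries. No single pair passed the adjusted threshold. Within the gene the mean was 0.41 ± 0.07 (SD, n = 3) in wild type and 0.42 ± 0.07 (n = 3) in homozygous libraries, a difference of 0.02 (exact permutation test of 3 against 3, p = 0.5, where 0.1 is the smallest possible). The difference was 0.01 on the 5′ side (exact permutation p = 0.8) and 0.02 on the 3′ side (exact permutation p = 0.5), each smaller than the larger SD of the genotypes. In edgeR's quasi-likelihood test of single pairs, 0 of the 934 Meis2 pairs differed by genotype after Benjamini-Hochberg adjustment, as did 0% of all 4097 core pairs. At an unadjusted p under 0.05 there were 39 of the 934 and 151 of the 4097, and with DESeq2 there were 0 adjusted calls and 4 and 20 unadjusted ones. The pair with the lowest p joined chr2:115980001-116000000 in the gene body to chr2:116460001-116480000, 0.51 (SE 0.14, log2) higher in homozygous libraries (edgeR's quasi-likelihood test, adjusted p = 0.995). The next joined chr2:115240001-115260000 to chr2:115960001-115980000, 0.35 (SE 0.11) higher (edgeR's quasi-likelihood test, adjusted p = 0.995). In both pairs, picked as the lowest p of the 934, the 3 homozygous libraries lay above the 3 wild-type libraries without overlap. Contacts of a Meis2 bin with itself, which are not members, made up 7.76% ± 0.201 (SD, n = 3) of all contacts of the interval in wild type. In homozygous libraries they made up 6.91% ± 0.494 (exact permutation p = 0.1), and these ranges did not overlap.

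In all 9 measures of the library plot, both replicate 2 libraries lay outside the range of the other 4, above it in 8 and below it in 1. They had the highest value inside Meis2, 0.49 and 0.50 against 0.36 to 0.39 in the other 4, and the lowest inside the 5′ window, -0.36 and -0.37 against -0.28 to -0.26. Towards the 3′ side all Meis2 bins gave 0.35 and 0.37 in them, against 0.25 to 0.28. Their excess of Meis2 over the 5′ window averaged 0.86, against 0.65 in the other 4 libraries. What set these libraries apart was not tested.

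For expression, the authors' deposited regression on genotype over 9 RNA-seq samples was read. The authors' deposited table for genes far from the deletion lists 566 genes, each with a p of at most 0.00998 and 0 of them with an FDR under 0.05. Meis2 is listed in neither of the authors' deposited tables. Of 18 TALE homeobox genes looked up, Irx3, an Iroquois class transcription factor, is listed in the authors' deposited table with a slope of 0.260 (t = 3.67, p = 0.00799, FDR 0.631). Of the 23 genes of the core, D330050G23Rik is listed in the authors' deposited table, with a slope of 0.155 (t = 5.11, p = 0.00138, FDR 0.586). The unit of the slopes is not stated in the table, and neither gene passed the FDR.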

How the data were processed

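Capture Hi-C of testis (Arima Hi-C kit and Agilent SureSelect enrichment, per the labels' protocols) was analysed in 3 wild-type and 3 homozygous libraries. The authors deposited whole-number contact counts for pairs of 10 kb bins, without normalization. Mouse build mm10 is named per the submitters' processing notes; how reads were aligned, filtered and binned for the matrices is not given in the sources used here. The name of each matrix gives a genotype and a number, which assigned it to its library. The authors also deposited 2 regression tables, with a t statistic and slope (used as a score of no stated unit) and a p-value with its FDR for each gene.

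The members and lists were chosen with earlier results of these data known. Bins under 20% of the core's median total (4 of 188) were left out. Observed contacts were divided, per library, by the mean count at the same distance, and log2 ratios were compared over libraries by exact sign-flip or exact permutation tests (Python 3.11.15). Matrices of the core were balanced by 200 rounds of iterative correction as an alternative. Pairs of 20 kb bins whose counts averaged 5 or more entered the quasi-likelihood test of edgeR 4.0.16 in R 4.3.3 (log expected count as offset, or TMM for genotype), checked on simulated data, and with DESeq2 1.42.0 as an alternative. Other alternatives changed the expectation, smallest distance, bin size, filters and libraries. The counts limit precision to counting error in single pairs. Partners named are the 5 highest and 5 lowest called partners of the promoter bin at least 100 kb away, the 2 pairs with the lowest genotype p, and the genes of the core. The 10 kb detail, the 400 kb limit and the values without replicate 2 were added after seeing the data. RNA-seq was used as deposited regressions only, and ChIP-seq was not analysed here.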

Additional observations from a re-analysis of the deposited data

How the results depend on the processing

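Of the 26 alternative values of the 5 within-library differences that kept 6 libraries, all had the reported sign and 25 stayed past the threshold. Another 40 rested on fewer than 6 values, where the sign-flip test cannot reach 0.05, and they are values without a test. They were averages over parts of the same 6 libraries. Since all 6 libraries had the same sign in each difference, these averages could not have another sign. Of 36 alternative genotype differences, 6 had the other sign (4 within Meis2), between -0.0218 and 0.0590, all within 1 SD of the reported value. Of 32 alternative counts of pairs, 30 stayed within 1.5 times. The promoter's excess over the gene body on the 3′ side fell to 0.0769 and out of the call when the smallest distance was raised by 20 kb (adjusted exact sign-flip p = 0.0625 over 6 libraries). With balancing weights in the edgeR offset, 215 Meis2 pairs in place of 609 were called above expectation and 369 in place of 154 below it. No filter on low counts gave the same counts, since every pair passed it. Leaving out 1 library at a time gave 584 to 604 pairs above and 146 to 156 below, and 0 that differed by genotype. It left the side difference between -0.30 and -0.28, and the promoter's difference between -0.26 and -0.22 on the 5′ side and between 0.10 and 0.14 on the 3′ side. With DESeq2, 572 pairs were above and 138 below.

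The labels number replicates alike in both genotypes. Over 934 single pairs, deviations of the same-numbered libraries correlated at 0.107, 0.142 and 0.0425. Wild-type replicates 1 and 2 correlated best with their own number and replicate 3 with number 1 (0.0809). The main tests did not take the numbers to pair the libraries. With the replicate block edgeR called 616 pairs above, 158 below and 0 by genotype (63 at an unadjusted p under 0.05). The paired genotype differences were 0.02 (SD 0.006) within Meis2, 0.01 (SD 0.019) on the 5′ side and 0.02 (SD 0.002) on the 3′ side. These SDs were below the larger SD of the genotypes, which was 0.073, 0.037 and 0.055 in the same order. In the averaged measures both replicate 2 libraries did lie apart from the rest, so the 6 libraries may not be independent. With the libraries of each number averaged, the 5 within-library differences had an exact sign-flip p of 0.25, the smallest that 3 values allow. Depth limits single distant pairs, where the median pair of Meis2 held 128 contacts a library.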
